A study of Rattus norvegicus with 17 samples.

Results

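Hippocampal synaptosomes of aged rats that searched a water maze poorly were compared with those of aged rats that searched it as well as adults. The comparison took the 7 aged impaired and 5 aged intact arrays by their group label, 12 of the 17 arrays of the series. All 12 animals were untreated males of 28 months, F1 hybrids of the strains Fischer 344 and Brown Norway, and all 12 arrays lay on 1 slide. The other 5 arrays were of adult rats on another slide and did not enter the comparison. Aged rats were sorted after testing in the Morris water maze, in which a rat swims to a hidden platform: those whose mean distance from the platform place stayed in the range of adults were called intact, the others impaired. The groups are thus a sorting of untreated animals by behavior, each animal gave 1 array (Illumina RatRef-12, a bead array with 1 color), and the maze scores of single rats were not used here.

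A synaptosome is a nerve terminal, often with a piece of the facing spine, that tears off and reseals when brain tissue is homogenized gently. Its RNA includes messages held at synapses, and the same fraction carries RNA of glial processes, myelin and vessel fragments. Molecules of the major histocompatibility complex (MHC) class I show peptides from inside the cell, those of class II peptides from engulfed material. In mouse neurons class I molecules are ligands of PirB, a receptor that limits synaptic plasticity, while microglia, the phagocytes of the brain, carry most of the tissue's C1q, Fc receptors and class II machinery. The question put to these arrays was whether RNA of such systems at hippocampal synapses follows memory among rats of the same old age.

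The mean signal per array was 456 ± 77.8 units (SD, n = 7) in impaired and 427 ± 90.7 (SD, n = 5) in intact rats, and 10920 to 11565 probes were detected per array. The difference in each was within the spread between rats (exact permutation tests, two-sided, p = 0.576 and 0.708, adjusted p = 0.708 for both over 3 measures). Impaired rats lay farther along the slide, at a mean position of 8.29 against 4.0 (exact permutation test, two-sided, p = 0.048, adjusted p = 0.144), and with position in the fit 33 of 82 named genes with a log2 difference of at least 0.15 either way moved by over 1.5 times. Those values stand beside the genes described below. Scaling arrays to 1 median in place of quantiles put 71.5% of all tested genes above 0, against 48.2%, so counts under that scaling are read against that share. Among markers of synapses, Syp (synaptophysin) and Snap25 stood at the 99.1 and 98.9 percentile of mean level over tested probes, Slc17a7 at the 65.7, Syn1 at the 41.4 and Camk2a at the 35 percentile. Aif1, a microglial protein, stood at the 94.8 and Mbp, myelin basic protein, at the 86.3 percentile. Dlg4 and PirB were not analysed here, as no probe carried their names.

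Aged impaired replicate 4 stood apart from the other rats. At 131 probes it lay over 1 log2 unit from the mean of the other 11 arrays, 128 of them higher, against 59 for impaired replicate 6, 26 for intact replicate 4, 18 for impaired replicate 3 and at most 5 for each of the other 8. Its list mean was the highest of all 12 rats in 9 of 42 gene lists. Plac8, a small protein of immune cells, was at 12.15 on the log2 scale in this rat and at 6.50 to 7.15 in the other 11. C4b, complement component 4, was at 13.06 against 8.36 to 9.33. The MHC class II invariant chain Cd74 was at 12.36 against 9.04 to 9.81. At each of these genes this rat lay above the range of all others, and the means of the impaired group moved with it. Fcgr3a, an Fc receptor of phagocytes, was at 10.71 against 7.86 to 8.22, and C1qa, a chain of complement C1q, at 12.79 against 10.43 to 10.91. The immune lists, and nearly all immune genes named below, are given with and without this rat. Others of the 40 genes farthest from the other arrays were Tent5a, Pygl, a glycogen phosphorylase, Anxa3 and Cldn5, the claudin of endothelial tight junctions.

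Promoters of the genes that stood highest in this rat were searched for the core of the interferon-stimulated response element, GAAA followed by any 2 bases and GAAA again, on both strands, in the 300 bases from 250 before to 50 after each gene's start (RefSeq, build GRCr8). Of the 40 genes farthest from the other arrays, 32 had a promoter in the table and 8 of these held the motif. It was in 2.74% of the 6015 promoters found for tested genes and in 3.92% of all 33469. The 40 genes were picked by their values, so the shares are a description with no test. Shown are 3 genes that hold it with the match, or its reverse complement, in capitals, beside Plac8, the gene farthest above, whose window holds no match.
Gbp2 (chr2:234005477-234005776, plus strand): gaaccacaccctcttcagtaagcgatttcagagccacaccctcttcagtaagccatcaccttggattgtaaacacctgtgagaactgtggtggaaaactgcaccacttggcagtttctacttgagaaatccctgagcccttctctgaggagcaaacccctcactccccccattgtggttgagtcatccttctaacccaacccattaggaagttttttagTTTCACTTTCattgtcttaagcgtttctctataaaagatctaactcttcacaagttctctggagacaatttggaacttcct
Lgals3bp (chr10:104127799-104128098, minus strand): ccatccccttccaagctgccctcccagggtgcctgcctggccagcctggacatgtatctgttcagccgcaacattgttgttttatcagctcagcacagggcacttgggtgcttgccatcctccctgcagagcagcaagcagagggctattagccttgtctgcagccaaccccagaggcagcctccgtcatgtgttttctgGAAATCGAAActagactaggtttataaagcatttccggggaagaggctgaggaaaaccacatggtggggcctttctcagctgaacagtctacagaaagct
Ncf1 (chr12:28121635-28121934, plus strand): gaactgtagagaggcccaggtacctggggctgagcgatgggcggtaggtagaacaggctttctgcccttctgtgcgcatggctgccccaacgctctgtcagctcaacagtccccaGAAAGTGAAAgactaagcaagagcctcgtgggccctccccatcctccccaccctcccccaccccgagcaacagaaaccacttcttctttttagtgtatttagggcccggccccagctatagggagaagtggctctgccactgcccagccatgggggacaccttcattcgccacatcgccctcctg
Plac8 (chr14:9356700-9356999, plus strand): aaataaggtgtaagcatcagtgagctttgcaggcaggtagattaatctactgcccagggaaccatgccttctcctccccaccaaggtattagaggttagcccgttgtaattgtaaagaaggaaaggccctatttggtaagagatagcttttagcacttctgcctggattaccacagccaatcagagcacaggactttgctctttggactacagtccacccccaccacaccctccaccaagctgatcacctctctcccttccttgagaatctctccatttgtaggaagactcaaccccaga

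Gbp2, an interferon-induced GTPase whose match begins at position -31, was at 8.87 in impaired replicate 4 and at 5.66 to 6.59 in the other rats. Lgals3bp, a secreted galectin-binding protein with the match at -50, was at 9.71 against 7.47 to 7.81. Ncf1, a subunit of the phagocyte oxidase with the match at -135, was at 9.63 against 7.67 to 7.94. The remaining 6 impaired rats lay within the intact range at Gbp2, Lgals3bp and Ncf1. Without replicate 4 the group difference, impaired minus intact, was -0.02 for Gbp2, 0.00 for Lgals3bp, 0.00 for Ncf1 and 0.04 for Plac8, and with it 0.38, 0.29, 0.26 and 0.80.

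**Figure D1:**
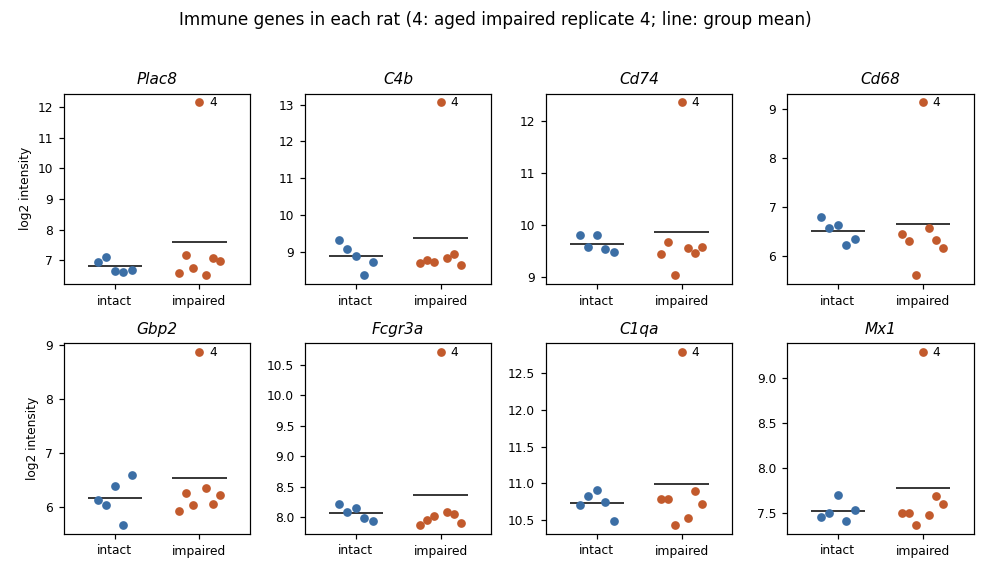
Log2 intensity (vertical axes) of 8 genes in each aged intact (blue, n = 5) and aged impaired (orange, n = 7) rat, with the group mean as a line. The point marked 4 is aged impaired replicate 4, above the other 11 rats in every panel, for example at 12.15 against 6.50 to 7.15 for Plac8.

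Over the 10296 probes detected on every array of at least 1 group, no gene separated impaired from intact rats after adjustment. In limma 0 probes had an adjusted p under 0.05 (smallest 0.924), and 0 did in the study's kind of between-group test after adjustment. An unadjusted p under 0.05 was found at 418 probes (4.06%), where 514.8 are expected by chance if none differ, 187 (1.82%) higher and 231 (2.24%) lower in impaired rats. Every impaired rat lay above every intact rat at 7 probes (0.068%) and below at 6 (0.0583%). Over the 7216 tested genes with a name, 105 (1.46%) were higher and 165 (2.29%) lower at an unadjusted p under 0.05, 270 (3.74%) in all, and 48.2% had a difference above 0. The groups did not overlap at 5 genes (0.0693%) higher and 6 (0.0831%) lower in impaired rats. If no probe differs, every split of the rats into groups of these sizes is equally likely to separate them. Chance alone would then give more probes and genes without overlap, in each direction, than were found. A lack of overlap at a gene, here and below, is thus by itself no sign of a difference. At the study's thresholds, an unadjusted p under 0.05 and a 1.2-fold difference, the methods' test took 43 probes (0.418%) as higher and 59 (0.573%) as lower. The counts differed with single rats left out: without impaired replicate 1 there were 306 higher and 434 lower at an unadjusted p under 0.05, and without impaired replicate 4 there were 145 lower.

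Nor did whole profiles separate. The mean distance between rats of different groups was 0.2825, within groups 0.2868, and the difference of -0.0043 did not stand out among relabelings of the rats (exact permutation test, one-sided, p = 0.644). Principal components 1, 2 and 3 held 22.3%, 19.7% and 15.9% of the variance, and the groups' scores overlapped on each (exact permutation tests, two-sided, adjusted p = 0.517, 0.517 and 0.634). The median SD of a probe was 0.162 in each group.

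**Figure D2:**
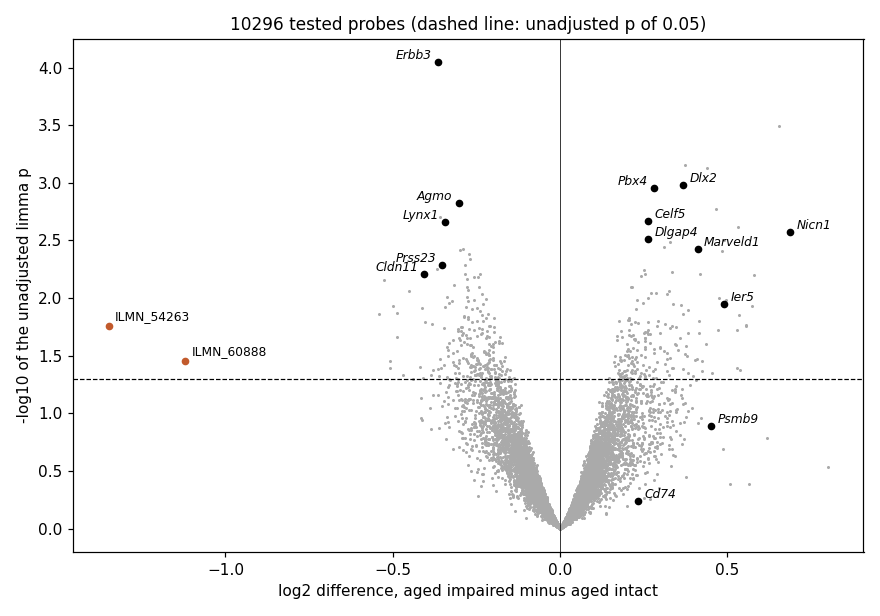
Log2 difference, impaired minus intact (horizontal axis), against -log10 of the unadjusted limma p (vertical axis) for 10296 tested probes (grey), with named genes in black and 2 unnamed probes in orange. None passed adjustment, and Erbb3 at -0.37 has the smallest p.

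The intervals bound differences in log2 intensity as processed here. The offset of 16 added to every signal makes such differences smaller at dim probes, so the bounds there are not bounds on RNA level. The 95% interval of the log2 difference reached a median of 0.21 to either side of the estimate. It lay inside 1.2-fold either way for 40.1% of probes, inside 1.5-fold for 95.7% and inside 2-fold for 99.8%. Of the 7216 tested genes with a name 6975 (96.7%) were inside 1.5-fold. Bright probes were held more tightly, with 54.6% of the brightest 3432 inside 1.2-fold against 25.5% of the dimmest 3432. The widest interval was that of Plac8, which reached 1.57 to either side, and 0.27 without impaired replicate 4.

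Among the named genes with the smallest p, those higher in impaired rats included Celf5 and Dlgap4. The lists that hold them did not go the same way. Neuronal RNA-binding genes were above 0 at 6 of 22 (median -0.03) and postsynaptic scaffold genes at 7 of 16 (median -0.01). Celf5, an RNA-binding protein that regulates splicing in neurons, was at 11.75, 11.55, 11.77, 11.70 and 11.86 in intact rats and at 11.91 to 12.08 (median 12.00) in impaired rats. All impaired rats lay above all intact rats, and the difference was 0.26 (standard error 0.07, 95% interval 0.11 to 0.41, limma adjusted p = 0.941). Dlgap4, a scaffold of the postsynaptic density, was at 10.69, 10.63, 10.84, 10.84 and 10.90 in intact rats and at 10.88 to 11.19 (median 11.03) in impaired rats. Only the lowest impaired rat fell within the intact range, and the difference was 0.26 (interval 0.10 to 0.42, limma adjusted p = 0.941). With slide position in the fit Celf5 differed by 0.23 and Dlgap4 by 0.24.

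Nicn1, a subunit of the complex that adds glutamate chains to tubulin, was at 6.46, 6.24, 6.74, 6.73 and 6.77 in intact rats and at 6.78 to 8.13 (median 7.10) in impaired rats. The groups did not overlap, and the difference of 0.69 (standard error 0.19, interval 0.28 to 1.10, limma adjusted p = 0.941) was the widest among the 11 named genes without overlap. Impaired replicate 6 was the highest rat, and without it the difference was 0.55. With slide position in the fit it was 0.32. Pbx4, a homeobox transcription factor, was at 6.87, 6.74, 7.05, 6.90 and 6.82 in intact rats and at 7.07 to 7.25 in impaired rats, again with no overlap and a difference of 0.28 (interval 0.13 to 0.43).

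Dlx2, a homeobox factor of interneuron precursors, was at 4.58, 4.66, 4.94, 5.00 and 5.11 in intact rats and at 5.13 to 5.33 (median 5.23) in impaired rats, a difference of 0.37 (interval 0.17 to 0.56). The groups did not overlap, but only 2 of 5 intact rats had Dlx2 detected, so it was tested only because all 7 impaired rats had. The chemokine Ccl19 differed by 0.33, the membrane protein Marveld1 by 0.41 and Isyna1, which makes inositol phosphate, by 0.25. Msra, which repairs oxidized methionine, had no overlap at a difference of 0.18. Without background correction Dlx2 differed by 0.19, Ccl19 by 0.17, Marveld1 by 0.27 and Nicn1 by 0.53. Under limma's usual background correction for these arrays (neqc), the background SD was put at 128 to 225 units per array against 5.28 to 10.4 from the middle of the negative controls, and dim probes had smaller differences. There Dlx2 differed by 0.03, Ccl19 by 0.03, Marveld1 by 0.07, Msra by 0.02, Pbx4 by 0.09 and Nicn1 by 0.24, while the bright Celf5 and Dlgap4 were at 0.27 and 0.28. Of 82 named genes with a log2 difference of at least 0.15 either way, 42 moved by over 1.5 times under neqc.

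Of the genes lower in impaired rats, Erbb3, a receptor for neuregulins, had the smallest p of all probes. It was at 5.46, 5.28, 5.43, 5.37 and 5.48 in intact rats and at 4.87 to 5.14 (median 5.06) in impaired rats. All impaired rats lay below all intact rats, and the difference was -0.37 (standard error 0.07, interval -0.51 to -0.22, limma adjusted p = 0.924). Because it was picked for the smallest p, its unadjusted limma p with any 1 array left out (at most 4.24e-04) is no independent support. It is a dim probe: deposited signals were 67.6 to 92.9 in intact and 63.7 to 82.5 in impaired rats, it was detected in 5 of 7 impaired rats, and it differed by -0.19 without background correction and by -0.03 under neqc. It passed the detection filter only through the intact group, where it is higher. Erbb3 is among the genes that the study picked on these same arrays for their level with age. The study also measured Erbb3 by qPCR in the same synaptosome samples. It reported no difference there between impaired and intact rats, and the qPCR mean was slightly higher in impaired rats. The lower array value was thus not seen by qPCR.

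Agmo, which cleaves ether lipids, was at 6.26, 6.29, 6.18, 6.07 and 6.19 in intact rats and at 5.66 to 6.03 (median 5.94) in impaired rats, with no overlap and a difference of -0.30 (interval -0.47 to -0.14). Lynx1, which tunes nicotinic acetylcholine receptors, was at 5.21, 5.40, 5.28, 5.41 and 5.39 against 4.73 to 5.19 (median 5.05), also without overlap, a difference of -0.34 (interval -0.54 to -0.14). Lynx1 was detected in 4 of 7 impaired rats, so it was tested only because all 5 intact rats, where it is higher, had it detected. Both are dim and differed by -0.19 and -0.18 without background correction and by -0.05 and -0.03 under neqc. Prss23, a serine protease and a brighter probe, was at 9.75 to 9.998 in intact rats and at 9.19 to 9.81 (median 9.55) in impaired rats. The ranges overlapped narrowly, and it differed by -0.35 (interval -0.58 to -0.12), or -0.40 under neqc.

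Rabggtb, a subunit of the enzyme that attaches lipid anchors to Rab proteins, was lower in every impaired rat by little (11.30 to 11.40 in intact, 11.11 to 11.30 in impaired rats, a difference of -0.14). The proteasome assembly chaperone Psmg2 (-0.29), the spindle gene Ska2 (-0.30), the TWEAK receptor Tnfrsf12a (-0.27), Crispld1 (-0.29) and the inositol transporter Slc2a13 (-0.29) complete the genes lower in impaired rats. Of these, Crispld1 and Slc2a13 had no overlap between groups. Under neqc the 5 differed by -0.14, -0.03, -0.02, -0.03 and -0.03.

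**Figure D3:**
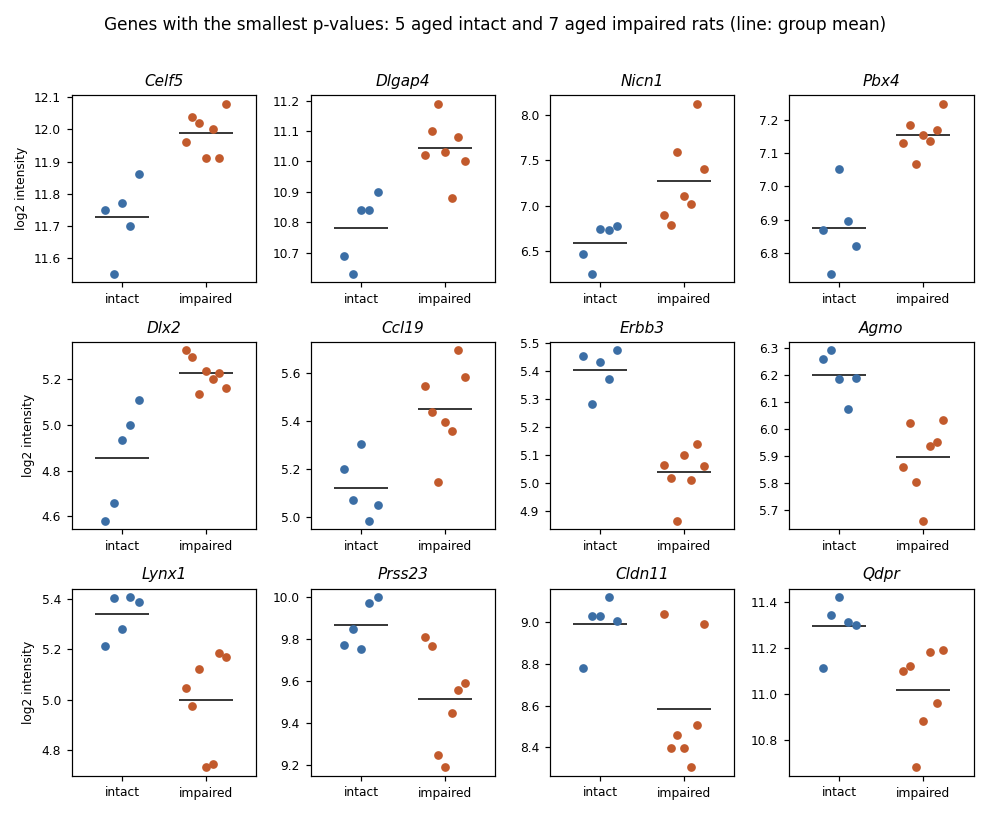
Log2 intensity (vertical axes, not starting at 0) of 12 genes in each aged intact (blue, n = 5) and aged impaired (orange, n = 7) rat, with group means as lines. Groups do not overlap at Celf5, Nicn1, Pbx4, Dlx2, Erbb3, Agmo and Lynx1, and overlap at Dlgap4, Ccl19, Prss23, Cldn11 and Qdpr.

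No tested gene of the MHC class I pathway, which the title of the series names together with PirB, separated the groups without overlap or passed adjustment. Of 20 tested genes of class I chains, peptide loading and the immunoproteasome, 0 had an unadjusted limma p under 0.05 and 13 were above 0, with a median of 0.06 beside 0.00 for all genes. Without impaired replicate 4, 6 of 20 were above 0 with a median of -0.03, and 20 intervals lay inside 1.5-fold against 13 with it. B2m, the light chain common to class I molecules, was at 13.82, 13.81, 13.77, 13.61 and 13.81 in intact rats and at 13.54 to 14.30 (median 13.74) in impaired rats. The ranges overlapped, and the difference was 0.03 (interval -0.22 to 0.28), or -0.05 without replicate 4.

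Psmb9, an interferon-induced subunit of the immunoproteasome, was at 6.76, 6.42, 6.66, 6.28 and 6.51 in intact rats and at 6.41 to 8.50 (median 6.64) in impaired rats, highest in replicate 4. It differed by 0.45 (interval -0.15 to 1.05) with that rat, by 0.20 without it and by 0.20 under neqc. Canx, a chaperone that folds class I chains, differed by -0.25 (interval -0.59 to 0.09), by -0.22 without replicate 4 and by -0.07 with slide position in the fit. Class I heavy chain genes of the rat are near-identical copies that a probe may not tell apart, so single chains are not ranked.

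Of the genes listed around PirB, its relatives, other ligands and its phosphatases, 9 were tested and 3 were above 0, with a median of -0.09. A fit with slide position put 5 above 0 (median 0.01). All 9 intervals lay inside 1.5-fold. Omg, a myelin glycoprotein that binds PirB, differed by -0.15 (interval -0.35 to 0.05), the neurotrophin receptor Ngfr by -0.12 (interval -0.34 to 0.11) and the phosphatase Ptpn11 by 0.08. In the fit with slide position Omg was at -0.07 and Ngfr at 0.02, and without impaired replicate 4 they were at -0.10 and -0.10.

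Microglia and macrophage markers were read with and without replicate 4. Of 20 tested markers 17 were above 0 (median 0.13), and 6 were without that rat (median -0.05). The mean over the list was 8.01 to 8.29 in intact rats, 7.87 to 8.21 in 6 impaired rats and 9.30 in replicate 4, which was the highest of all 12 rats at 16 of the 20 markers. Aif1 was at 11.65, 11.78, 11.79, 11.37 and 11.36 in intact rats and at 11.51 to 12.91 (median 11.70) in impaired rats, and differed by 0.27, or 0.09 without replicate 4. P2ry12, a purine receptor of resting microglia, was at 8.75, 9.00, 8.93, 8.96 and 9.05 in intact rats and at 8.26 to 9.03 (median 8.76) in impaired rats. It differed by -0.24 (interval -0.50 to 0.03), and replicate 4, at 9.01, lay within the intact range. Without replicate 4 it differed by -0.29, the 1 marker of the list with an unadjusted limma p under 0.05 there. Of all genes 1.43% were lower at that threshold in that setting. With slide position in the fit P2ry12 differed by -0.12. In bulk samples fewer cells of a type and less RNA per cell cannot be told apart.

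Interferon-induced genes had the highest median of the 42 lists, 0.20 over 13 genes with 10 above 0, and 0.00 with 7 above 0 without replicate 4. Under neqc the median was 0.04. Ifi35, an interferon-induced regulator, differed by 0.20 (interval -0.03 to 0.43), by 0.14 without replicate 4 and by 0.04 under neqc. Complement genes were above 0 at 10 of 15 (median 0.06) and at 2 without replicate 4 (median -0.07). C1r and C1s, proteases that start the classical pathway, differed by -0.19 (interval -0.51 to 0.13) and -0.02 (interval -0.20 to 0.17), and their inhibitor Serping1 by -0.15 (interval -0.46 to 0.15). Without replicate 4 C1r, C1s and Serping1 were at -0.21, -0.01 and -0.20. A fit with slide position put C1r at 0.15 and Serping1 at -0.07.

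MHC class II genes and the proteases that prepare their peptides were above 0 at 6 of 12 (median 0.02), and at 5 without replicate 4 (median -0.07). Cd74 was at 9.81, 9.58, 9.81, 9.54 and 9.48 in intact rats and at 9.04 to 12.36 (median 9.57) in impaired rats. Replicate 4 was far above and the other 6 lay within or below the intact range, so the difference was 0.23 (interval -0.64 to 1.10) with it and -0.18 without it. RT1-DMb, which helps load class II molecules, differed by 0.26 with and 0.05 without that rat, and the lysosomal reductase Ifi30 by 0.28 and 0.06. The proteases Ctsl and Ctss differed by -0.18 (interval -0.39 to 0.04) and -0.06 (interval -0.34 to 0.23), and by -0.15 and -0.14 without replicate 4. With slide position in the fit RT1-DMb was at 0.17, Ctsl at -0.05 and Ctss at -0.19.

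Fc receptors and their adaptors were above 0 at 9 of 11 (median 0.15), and at 6 without replicate 4 (median 0.02). The kinases Btk and Syk, which act below these receptors, differed by 0.29 (interval -0.05 to 0.64) and 0.15 (interval -0.03 to 0.32), and by 0.20 and 0.10 without replicate 4. Btk is dim, was detected in 4 of 5 intact rats and was tested only because all 7 impaired rats, where it is higher, had it detected. Under neqc Btk was at 0.03 and Syk at 0.02, and with slide position in the fit they were at 0.16 and 0.20. The 7 tested genes of Toll-like receptors lay between -0.02 (Tlr6) and 0.06 (Tlr2), all intervals inside 1.5-fold. Of these 4 were above 0 (median 0.02), and 0 were without replicate 4 (median -0.06). Of the 15 tested genes that the study chose on these arrays for their level with age, which makes them no independent list, 9 were above 0 and 3 without replicate 4. The galectin Lgals3 differed by 0.12 with and -0.06 without that rat, and S100a6 by -0.20 and -0.20. Under neqc S100a6 was at -0.06. Of 22 markers of perivascular macrophages and blood leukocytes with a named probe, 5 were detected on every array of a group and so were tested. Among them were Lyve1 (-0.13, and -0.06 without replicate 4) and Prf1 (0.12 and 0.09). A marker detected in only some rats of each group, such as in replicate 4 alone, was not tested.

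**Figure D4:**
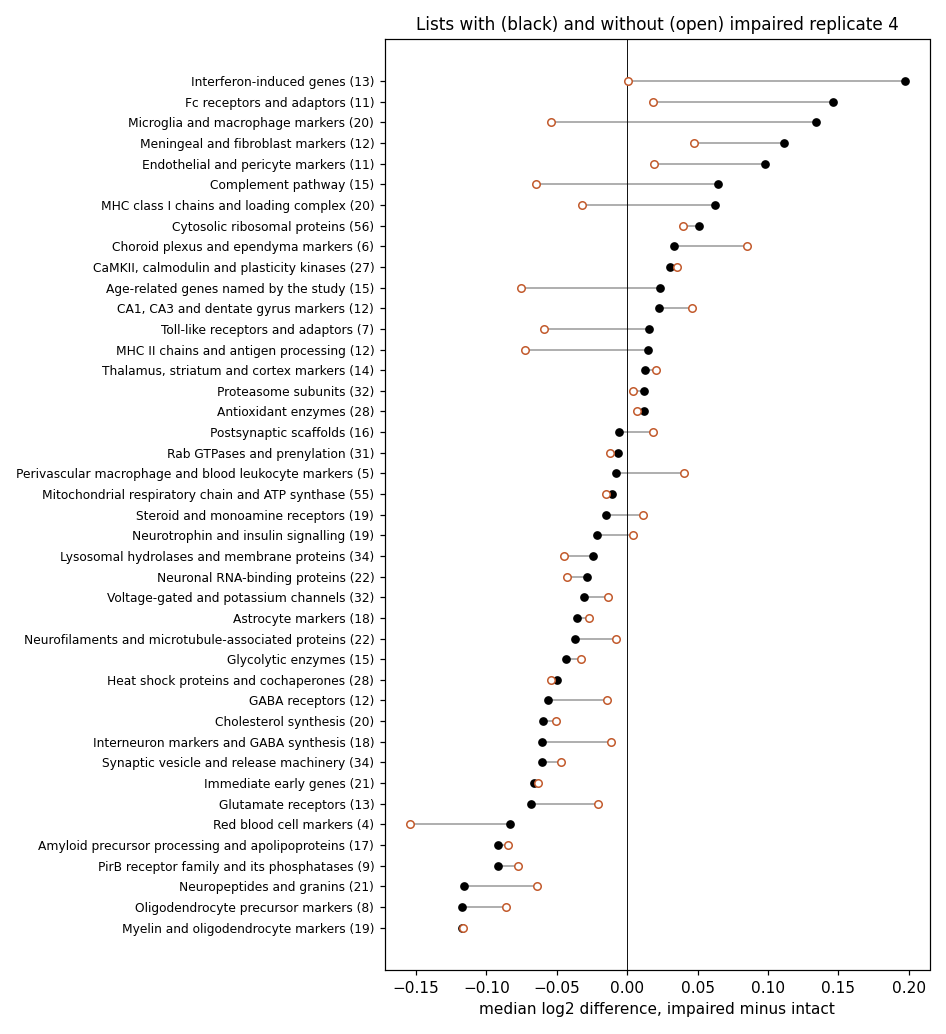
Median log2 difference, impaired minus intact (horizontal axis), over the tested genes of each of 42 lists (number tested in brackets), with all 12 rats (black) and without impaired replicate 4 (open). Interferon, microglia and complement lists go from 0.20, 0.13 and 0.06 to 0.00, -0.05 and -0.07, while the myelin list is at -0.12 and -0.12.

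Most myelin genes had differences below 0 in impaired rats, with and without replicate 4, and none passed adjustment. Of 19 tested markers of myelin and oligodendrocytes 17 were below 0 (median -0.12), and 5 had an unadjusted limma p under 0.05, all lower, beside 2.29% of all genes. Without replicate 4, 4 did, all lower, beside 1.43% of all genes. Median scaling put the median of all genes at 0.06. Under it 7 of the 19 were above 0 (median -0.06), beside 71.5% of all genes. None of the 19 had an unadjusted limma p under 0.05 there, where 0.263% of all genes were lower and 1.16% higher at that threshold. Cldn11, the claudin of myelin tight junctions, was at 8.78, 9.03, 9.03, 9.12 and 9.00 in intact rats and at 8.30 to 9.04 (median 8.46) in impaired rats. Of the impaired rats 5 lay below every intact rat and 2 within the intact range, a difference of -0.41 (standard error 0.13, interval -0.68 to -0.13, limma adjusted p = 0.941). Qdpr, a pterin reductase that is rich in oligodendrocytes, was at 11.11, 11.34, 11.42, 11.31 and 11.30 in intact rats and at 10.68 to 11.19 (median 11.10) in impaired rats, a difference of -0.28 (interval -0.48 to -0.08). The myelin membrane proteins Mal (-0.28), Mog (-0.22) and Tspan2 (-0.21) were the others with an unadjusted p under 0.05.

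Mbp, a main structural protein of myelin, was at 10.33, 11.14, 10.86, 10.27 and 9.92 in intact rats and at 10.05 to 10.82 (median 10.41) in impaired rats, a difference of -0.05 (interval -0.44 to 0.35), and of 0.21 with slide position in the fit. Its ranges overlapped widely, and Cnp, a myelin enzyme, differed by -0.05. Over the whole list the mean was 9.89 to 10.13 in intact rats and 9.65 to 10.03 (median 9.91) in impaired rats, which overlap. With slide position in the fit the list median was -0.13. There 2 members had an unadjusted limma p under 0.05, both lower, beside 0.998% of all genes.

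**Figure D5:**
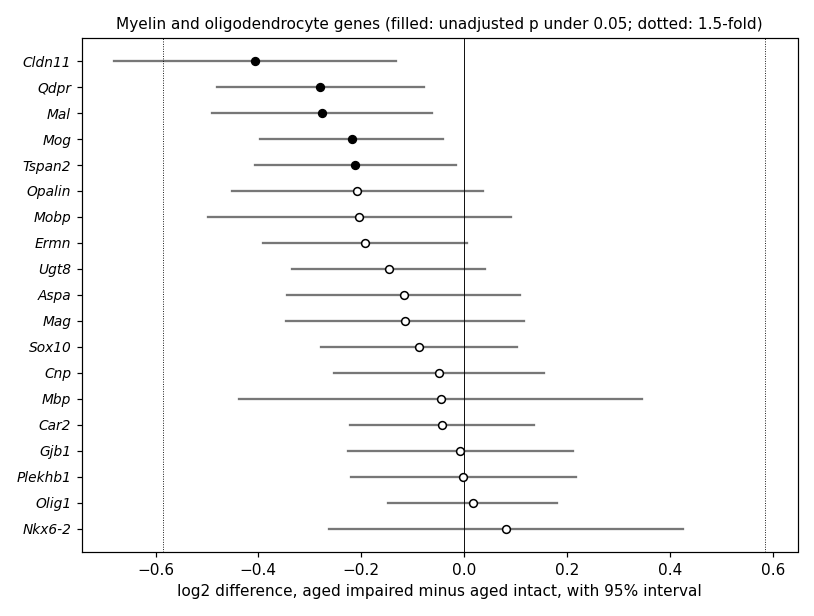
Log2 difference, impaired minus intact (horizontal axis), with its 95% interval for 19 tested myelin and oligodendrocyte genes. Filled points, from Cldn11 at -0.41 to Tspan2 at -0.21, have an unadjusted p under 0.05, and of all intervals only that of Cldn11 reaches the dotted line of 1.5-fold.

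Of 8 markers of oligodendrocyte precursors 7 were below 0 (median -0.12, and -0.07 with slide position in the fit). Pdgfra, the growth factor receptor that marks these cells, was at 9.20, 9.44, 9.21, 9.13 and 9.30 in intact rats and at 8.62 to 9.26 (median 9.03) in impaired rats. The ranges overlapped, and it differed by -0.30 (interval -0.54 to -0.06), or -0.16 with slide position in the fit. Of 18 astrocyte markers 16 were below 0 (median -0.04), and 8 were above 0 with position in the fit, as were 8 without impaired replicate 6. Aqp4, the water channel of astrocyte endfeet, was at 8.61, 9.15, 8.59, 8.77 and 9.68 in intact rats and at 7.47 to 9.11 (median 8.61) in impaired rats, lowest in replicate 6, and differed by -0.41 (interval -0.94 to 0.11), by -0.23 without that rat and by -0.27 with slide position in the fit. The receptors Fgfr3 and Cd44 differed by -0.22 and -0.19, and Vim, an intermediate filament, by 0.04. Fgfr3 was at -0.09 with slide position in the fit, and the dim Cd44 was at -0.03 under neqc.

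Markers of other tissue that a dissection can carry differed with single rats left out. Meningeal and fibroblast genes were above 0 at 9 of 12 (median 0.11). The median was 0.05 without impaired replicate 4 and 0.03 without intact replicate 4, where 7 were above 0. The list means were 6.93 to 7.37 in intact and 6.90 to 7.55 in impaired rats, and the growth factor Igf2 differed by 0.35 (interval -0.01 to 0.71), or 0.21 under neqc. Endothelial and pericyte genes were above 0 at 9 of 11 (median 0.10), at 7 without impaired replicate 4 (median 0.02) and at 5 without intact replicate 4 (median 0.00). Their mean was 7.06 to 7.62 in intact rats, 7.06 to 7.55 in 6 impaired rats and 7.76 in impaired replicate 4, the highest of all rats, as it was at Plac8, C4b and Cd74. The part of this list in the immune values was not tested. Vtn, a secreted protein that brain pericytes make, was at 0.25, at 0.48 with slide position in the fit and at 0.07 under neqc, and Cspg4 at -0.20, or -0.05 with position. Of the choroid plexus genes 3 of 6 were above 0, and of 4 red blood cell genes 0 were. Genes of hippocampal subfields were above 0 at 7 of 12 (median 0.02, and -0.02 with slide position in the fit), with the CA1 gene Wfs1 at -0.25 (interval -0.53 to 0.03), or -0.16 with position, and genes of thalamus, striatum and cortex at 7 of 14 (median 0.01). The part of these tissues in other results was not tested.

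Genes of synaptic vesicles and release were below 0 at 28 of 34 (median -0.06), with 0 at an unadjusted limma p under 0.05 and 31 intervals inside 1.5-fold. Syp was at 13.31, 13.26, 13.44, 13.60 and 13.45 in intact rats and at 13.12 to 13.50 (median 13.40) in impaired rats. The ranges overlapped, and the difference was -0.04 (interval -0.23 to 0.14), and 0.01 with median scaling. Snap25, a fusion protein, differed by -0.09 (interval -0.33 to 0.14), the vesicular glutamate transporter Slc17a7 by -0.13 (interval -0.48 to 0.22) and Syn1, which tethers vesicles, by -0.25 (interval -0.64 to 0.14). Without impaired replicate 4 Slc17a7 was at -0.05, and the dim Syn1 was at -0.10 under neqc. Intact replicate 4 was high on this list, and without it 15 of 34 genes were above 0 and the median was -0.02.

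Neuropeptide and granin genes were below 0 at 20 of 21 (median -0.12, and -0.06 with 6 above 0 without impaired replicate 4). Scg5, a chaperone of a prohormone convertase, was at 12.37, 12.55, 12.28, 12.38 and 12.39 in intact rats and at 11.80 to 12.41 (median 12.20) in impaired rats. The ranges overlapped, and the difference was -0.25 (interval -0.47 to -0.02), or -0.12 with slide position in the fit. Bdnf, an activity-dependent neurotrophin, differed by -0.21 (interval -0.46 to 0.04), or -0.06 with position.

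Of 13 glutamate receptor genes 12 were below 0 (median -0.07), with the AMPA receptor subunit Gria2 at -0.18 (interval -0.43 to 0.07), or -0.09 with slide position in the fit, and its partner Cnih2 at -0.19. Of 12 GABA receptor genes 10 were below 0 (median -0.06), with the dim subunit Gabrb2 at -0.22, or -0.01 with position and -0.03 under neqc. Without impaired replicate 4 the medians were -0.02 and -0.01, with 2 and 5 genes above 0, and with position in the fit -0.02 and -0.03. With median scaling 8 of 13 and 7 of 12 were above 0, beside 71.5% of all genes. All intervals of both lists lay inside 1.5-fold. Interneuron genes were above 0 at 7 of 18, with Gad1, which makes GABA, at -0.06 (interval -0.26 to 0.15). Among steroid and monoamine receptors and related genes the serotonin receptor Htr2c differed by -0.37 (interval -0.61 to -0.12) and the nicotinic receptor subunit Chrna7 by -0.26 (interval -0.44 to -0.07), both dim. They were detected in 4 and 3 of 7 impaired rats and were tested only because all 5 intact rats, where they are higher, had them detected. They were at -0.19 and -0.13 without background correction and at -0.03 and -0.02 under neqc, and Chrna7 was at -0.16 with position.

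Postsynaptic scaffold genes were above 0 at 7 of 16, with Dlgap4 higher as given above and its relative Dlgap1 at -0.20 (interval -0.45 to 0.06). Genes of CaMKII, calmodulin and other plasticity kinases were above 0 at 16 of 27 (median 0.03), all inside 1.5-fold, with Camk2b at 0.17 (interval -0.02 to 0.35), Camk2g at 0.14 and Camk2a at 0.05 (interval -0.23 to 0.33). Immediate early genes were above 0 at 7 of 21, and at 11 without intact replicate 4. Ier5, a gene of this class, was at 6.57, 6.37, 6.50, 6.60 and 6.59 in intact rats and at 6.39 to 7.77 (median 7.00) in impaired rats, and differed by 0.49 (interval 0.13 to 0.85), or 0.17 with slide position in the fit and 0.15 under neqc. Ion channel genes were above 0 at 11 of 32, and at 17 without intact replicate 4, with the calcium channel Cacna1c at -0.19, or -0.04 with position. Cytoskeletal genes were above 0 at 6 of 22, with the tubulin Tubb5 at 0.21 and Dpysl3, an axon growth protein, at 0.28, or 0.06 under neqc.

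Genes of cell upkeep had medians near 0. Ribosomal protein genes were above 0 at 44 of 56 (median 0.05), with 0 at an unadjusted limma p under 0.05, and respiratory chain genes at 22 of 55 (median -0.01), with Ndufa5 at -0.15. All intervals of both lists lay inside 1.5-fold, as did those of 32 proteasome genes (17 above 0) and 28 antioxidant genes (16 above 0). Rab and prenylation genes were above 0 at 15 of 31. An unadjusted limma p under 0.05 was found for 3, all lower, beside 2.29% of all genes: Rab11b (-0.24), Rab4b (-0.25) and Rabggtb. The number lower was 0 under median scaling, beside 0.263% of all genes, and 1 with slide position in the fit, beside 0.998%. It was 1 without impaired replicate 4, beside 1.43%, and 5 under neqc, beside 2%. Rab4b was detected in 5 of 7 impaired rats and was tested only because all 5 intact rats, where it is higher, had it detected, and it was at -0.02 under neqc. Heat shock genes were below 0 at 23 of 28 (median -0.05), with the dim Hspa4 at -0.30, -0.18 with position and -0.03 under neqc. Lysosomal genes were above 0 at 16 of 34, and at 10 without impaired replicate 4. The lipase Lipa, a dim probe, was at 0.35, 0.17 with position and 0.04 under neqc, and the thioesterase Ppt1 at -0.18. Cholesterol synthesis genes were below 0 at 16 of 20 (median -0.06) and genes of amyloid precursor processing at 13 of 17 (median -0.09), with App at -0.21 (interval -0.50 to 0.07). With position in the fit the last list had a median of -0.01 with 7 above 0, and App was at -0.11. Neuronal RNA-binding genes were above 0 at 6 of 22 (11 without impaired replicate 6), glycolytic genes at 6 of 15, and genes of neurotrophin and insulin signalling at 8 of 19, with Igf2r at -0.22.

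The widest differences belonged to 2 probes with no gene name here, singled out after their values were seen. ILMN_54263 had deposited signals of 361, 287, 297, 408 and 288 units in intact rats, and of 106, 115, 175, 106, 975, 107 and 162 in impaired replicates 1 to 7. ILMN_60888 had 230, 250, 253, 327 and 253 in intact rats, and 98.3, 96.1, 182, 96.4, 796, 92.9 and 204 in impaired replicates 1 to 7. At both probes 6 impaired rats lay below every intact rat and impaired replicate 5 above them all. The log2 differences were -1.35 (interval -2.42 to -0.27, adjusted p = 0.941) and -1.12 (interval -2.15 to -0.09, adjusted p = 0.941). Without impaired replicate 5, the rat that goes the other way, they were -1.82 (limma adjusted p = 0.0177) and -1.56 (limma adjusted p = 0.0917). ILMN_54263 was the 1 probe to pass adjustment in any setting. No adjustment was made over the settings, so this is no call of a difference. The probes correlated at r = 0.977 over the 12 arrays, which share slide and processing. Adult rats, on another slide, had signals of 203 to 544 and of 95.4 to 432.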

How the data were processed

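The deposited table held, per the file headers, a signal intensity per probe and array and a detection p-value from the authors' GenomeStudio 1.0.6, with no normalization. The 12 aged arrays were background-corrected by normexp with a background mean and SD read from the middle of the negative controls, as the detection p-values place them, an offset of 16 was added, and log2 values were quantile normalized. Probes with a detection p under 0.05 on every array of either group were tested (10296 of 22226) in limma 3.58.1 (R 4.3.3) with Benjamini-Hochberg adjustment. A second deposited table held the same intensities. Of 22226 probes, 9034 carry no gene symbol. The steps were tested on simulated data. A gene with several probes is represented by the brightest. Genes named are the 8 with the smallest p in each direction, up to 6 in each direction whose groups do not overlap, the 2 smallest p of each list and a fixed set; others are named as examples chosen after their values were seen. The members and lists were chosen with earlier results of these data known. Replicate numbers follow sample order within each group. They equal the numbers in the sample titles for impaired rats but not for intact rats. They are no factor of the design and pair no rats. Same-numbered arrays correlated at -0.262 to 0.257. No pair of arrays was a duplicate (highest correlation 0.996). Each array is 1 rat, and the number of rats limits the precision. Alternatives were other background, offset, scaling, detection and probe choices, all 17 arrays, array weights, slide position, a replicate block, the methods' test and each array left out; leaving out impaired replicates 4 and 6 together was added after seeing the data.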

Additional observations from a re-analysis of the deposited data

Results flagged for a closer look

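In 29 of 318 groups of values checked, the highest or lowest rat lay far from the others by Dixon's criterion, the gap to the nearest rat as a share of the group's range. Chance flags about 1 in 20 groups, and the groups overlap in their genes. Impaired replicate 4 was the outlying rat in 16. It was highest for Ifi30 (0.884), RT1-DMb (0.864), Cd74 (0.807), Aif1 (0.771) and Lgals3 (0.677), and for the list means of Fc receptors (0.84), MHC class II (0.834), interferon-induced genes (0.823), microglia (0.763), the study's genes (0.705), complement (0.687), MHC class I (0.589) and Toll-like receptors (0.587). It was lowest on principal component 2 (0.841), for steroid and monoamine receptors (0.616) and for Igf2r (0.606).

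Intact replicate 4 was highest for Syn1 (0.801) and the list mean of synaptic vesicle genes (0.715), and lowest for B2m (0.762), Igf2 (0.743) and the meningeal list mean (0.757). Impaired replicate 3 was lowest for Psmd9 (0.725) and the meningeal list mean (0.637) and highest for Txnrd1 (0.667). The others were impaired replicate 1 for Khdrbs3 (0.588, highest), impaired replicate 6 for neuronal RNA-binding genes (0.626, lowest), impaired replicate 7 for mean signal (0.637, highest), intact replicate 1 for Sqle (0.714, lowest) and intact replicate 5 for Ngfr (0.755, lowest).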

How the results depend on the processing

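No probe passed adjustment in limma in any setting except ILMN_54263 without impaired replicate 5. Probes at an unadjusted p under 0.05 (187 higher, 231 lower) were 34 lower under median scaling, 47 higher and 1 lower without normalization, 453 and 502 without the detection filter, 118 and 95 with slide position, 132 lower without impaired replicates 4 and 6, and 43 and 59 in the methods' test with 1.2-fold. Probes without overlap (7 above, 6 below) were 4 and 2 under median scaling, 0 and 0 without normalization, 22 and 24 without the filter, and 23 and 19 without both rats. Intervals inside 1.5-fold numbered 21610 without the filter. Median scaling put the median of all probes at 0.06 and no normalization at 0.10. The replicate block, on numbers that follow sample order and are no factor of the design, gave 430 probes at an unadjusted limma p under 0.05 and 0 after adjustment. Same-numbered arrays did not pair, only number 5 correlated best with its own number, and the block changed no call. With each array left out, adjusted calls were 0 to 1, higher probes 161 to 306, lower probes 145 to 434, non-overlapping probes 10 to 37 above and 8 to 27 below, the separation of the groups -0.0085 to 0.0024, the slide position difference 3.54 to 5.17 and the difference in detected probes -98.5 to 9.

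Some genes turned direction. Their log2 differences without normalization were Rabggtb 0.00617, Slc4a1 0.0137, Fezf2 0.0257, Khdrbs3 0.0101, Psmc5 0.0156, C1s 0.109, Ctss 0.0677, Syp 0.0702, Snap25 0.0292, Slc17a7 0.0118, Mbp 0.0825 and Gad1 0.0886. Under median scaling they were C1s 0.0639, Ctss 0.00766, Syp 0.0101, Mbp 0.0248 and Gad1 0.0295, with slide position Ngfr 0.0177, C1r 0.148, Nfkbia -0.00861, Prf1 -0.03, Mbp 0.211 and Vim -0.0251, and with array weights Nfkbia -0.0184. Without impaired replicates 4 and 6 they were Tlr2 -0.0468, Nfkbia -0.0123, Cd74 -0.184, B2m -0.0278, Lgals3 -0.088, Syp 0.0232, Mbp 0.0462, Gad1 0.000911 and Vim -0.00995. With each array left out they ran for Tlr2 from -0.0368 to 0.137, for Nfkbia from -0.075 to 0.135, for Cd74 from -0.182 to 0.372, for B2m from -0.0511 to 0.0758, for C1s from -0.0749 to 0.0582, for Lgals3 from -0.06 to 0.209, for Ctss from -0.142 to 0.0155, for Syp from -0.0803 to 0.0056, for Snap25 from -0.147 to 0.0051, for Camk2a from -0.0121 to 0.124, for Slc17a7 from -0.257 to 0.0268, for Mbp from -0.193 to 0.114, for Gad1 from -0.13 to 0.018, for Vim from -0.0599 to 0.0983. List medians less that of all genes moved for PirB to 0.020 with slide position, for thalamus, striatum and cortex to 0.0576 with slide position, 0.0605 with the replicate block and 0.0457 without both rats (-0.0126 to 0.0618 with each array left out), and for Rab genes to -0.0329 with array weights (-0.0418 to 0.00474 with each array left out). The cause of these moves was not tested. The number of rats and, for dim probes, signals close to background limit the precision.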
